A study of Mus musculus with 12 samples.

Results

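Schwann cells wrap the axons of peripheral nerves, and those around larger axons roll their membrane into myelin. The transcription factors Sox10 and Egr2 switch on the genes of this program, and Mbp (myelin basic protein), Pmp22 (peripheral myelin protein 22), Mag (myelin-associated glycoprotein) and Prx (periaxin) encode parts of the sheath, which compacts, spaces and anchors the wraps. S100b, a calcium-binding protein, marks Schwann cells and is also made by adipocytes. Nerve branches run through every skeletal muscle, so that a piece of gastrocnemius brings Schwann cell RNA with it. These 7 genes were chosen by name, and 6 of them had a transcript cluster (the gene-level probe group of the array) that carries a single gene symbol, out of 19938 such genes. Each of the 6 had 1 transcript cluster. Prx was not analysed here.

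The genes were measured in the gastrocnemius muscle of 6 recipients from trained donors (RT) and 6 recipients from sedentary donors (RS), with 1 Affymetrix Mouse Gene 1.0 ST array per mouse. All recipients were male germ-free mice of the strain Tsl;ICR[GF], 11 weeks of age, which were gavaged with feces of treadmill-trained or sedentary ICR mice, kept on a high-fat diet, and fasted before muscle was taken at week 1. Recipients shared cages and received identical fecal samples, so cage and donor training cannot be told apart, and mice of a group may not be independent. Values are log2 signals normalized by the authors, and a difference of 1 is a 2-fold change. That the tissue is skeletal muscle was checked on 10 muscle fiber genes, among them Acta1 and Ckm. These genes averaged a log2 signal of 12.1 to 12.2 per mouse in RT and 11.97 to 12.2 in RS, with 0 of them called. They do not tell gastrocnemius from other muscles. Arrays differed in how widely their values were spread. The SD of all log2 signals on an array was 2.08 to 2.16 in RT, and in RS it was 1.98 for RS-4, 1.99 for RS-6 and 2.06 to 2.13 for the other mice. Calls of the 6 genes and of the related lists are therefore also given without RS-4 and RS-6, and for most of them also with that SD as a covariate (array SD). Array SD tended to be lower in RS, so the covariate can also take up part of a difference between the groups. In bulk muscle, fewer Schwann cells and less RNA per Schwann cell cannot be told apart.

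Pmp22 rose in RT and Sox10 fell, while Mbp, Mag, Egr2 and S100b did not pass the test. Calls required p under 0.05 before adjustment and under 0.1 after Benjamini-Hochberg adjustment in limma's fit over all 28944 transcript clusters. Of the 6 genes, 2 were called, 1 higher and 1 lower, and over the array 24.9% of transcript clusters were called (11.9% higher and 13% lower). A count of 2 in 6 lies near this background. The median log2 change of the 6 genes was −0.11, against −0.01 over all transcript clusters. Direction over the array went with signal: of the transcript clusters brighter than the median 20.6% were higher and 10.7% lower, and of the dimmer ones 3.21% were higher and 15.3% lower. Pmp22, Mbp, Sox10 and S100b were among the brighter ones, and Mag and Egr2 among the dimmer ones. The medians of the 12 arrays ran from 4.4 to 4.63. Sox10, S100b and Egr2 lay close to them, with mean log2 signals of 4.75, 4.55 and 4.48, and Mag lay at 4.08. Only Mbp (5.70) and Pmp22 (8.465) were well above. For 0 of the 6 genes all RT mice lay above all RS mice, against 2.69% over the array, and for 1, Sox10, all lay below, against 3.1%.

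Pmp22, whose product spans the myelin membrane and whose gene dosage sets the stability of peripheral myelin, gave the largest change of the 6. Its log2 signals were 8.64, 9.31, 8.77, 10.4, 8.35 and 8.78 in RT-1 to RT-6, against 7.34, 7.75, 8.87, 7.6, 8.63 and 7.14 in RS-1 to RS-6. The groups overlapped: 2 RT mice lay above every RS mouse, and 4 RS mice lay below every RT mouse. Pmp22 averaged 9.04 ± 0.73 in RT and 7.89 ± 0.70 in RS (SD, n = 6 each), which is a 2.22-fold rise. On the log2 scale the change was 1.15 with a standard error of 0.33 (limma, adjusted p = 0.0283), and an exact permutation test gave p = 0.0238 (two-sided). The 95% interval of the log2 change ran from 0.46 to 1.85. The call ended without RS-4 and RS-6, where the difference was 0.89 (adjusted p = 0.148 from limma), and with array SD as a covariate, where it was 0.94 (adjusted p = 0.237). Over all 23 alternatives the adjusted p of Pmp22 lay between 0.0115 and 0.237.

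**Figure D1:**
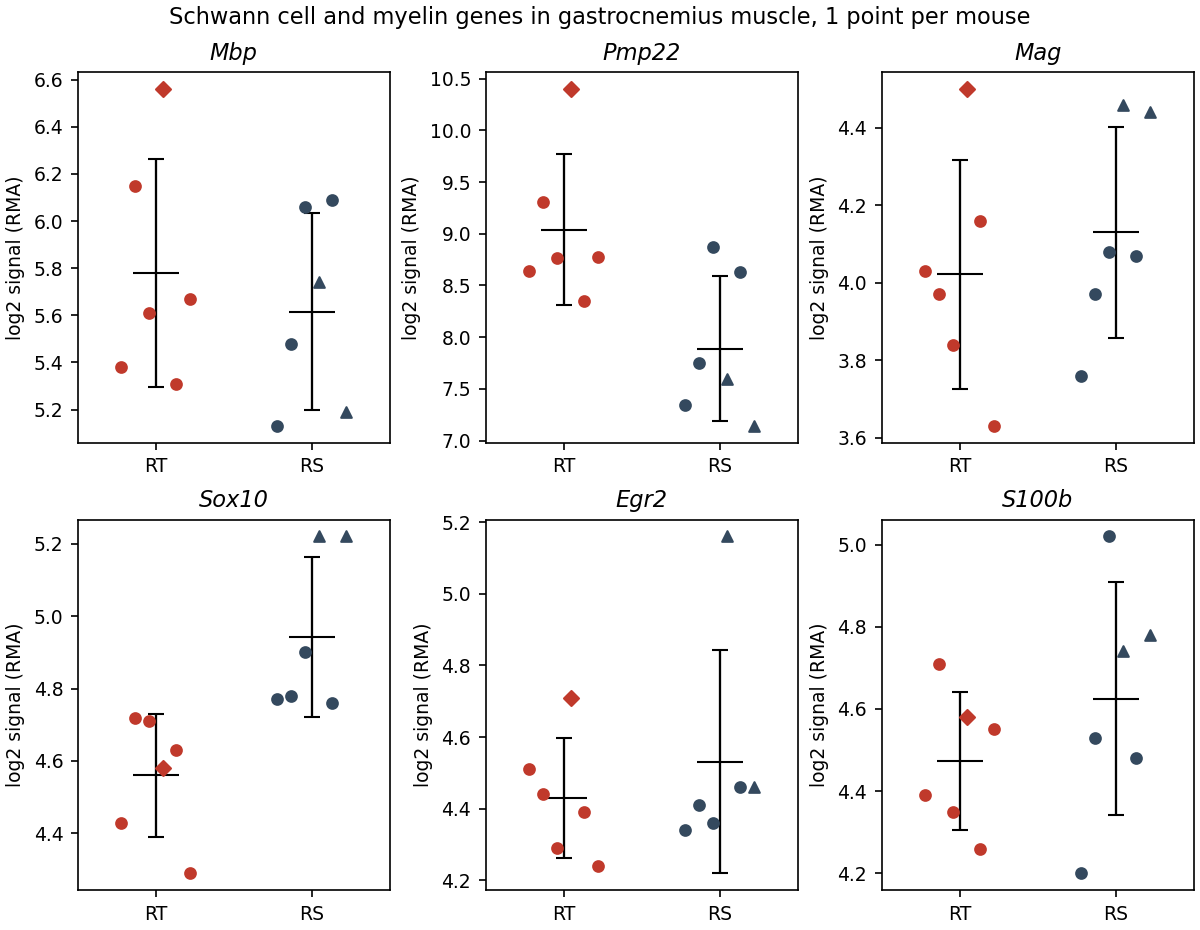
Log2 signal of the 6 measured genes, 1 point per mouse, with RT left and RS right in each panel; black bars are the mean and SD (n = 6 each), triangles are RS-4 and RS-6, and the diamond is RT-4. Pmp22 averaged 9.04 in RT and 7.89 in RS with overlap, and in Sox10 every RT point lay below every RS point.

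The gene has several start sites, and the single transcript cluster of Pmp22 does not tell them apart. The RefSeq promoter table (build GRCm38.p6) holds 4 windows for Pmp22. Windows of 300 bases, 250 before and 50 after each start, were searched on both strands for the SOX cores ACAAAG and ACAAT and the EGR cores GCGTGGG and GTGGGAG, which occurred in 18.7%, 31%, 5.04% and 9.73% of the 32851 windows of all genes. The 4 windows of Pmp22, the 5 of Egr2 and the 1 of S100b held 0 matches to any of them. The 250 bases before the first and the third start of Pmp22, which differ in GC content (48.8% and 64.8%), are shown because Pmp22 carries the largest change, in lower case since no motif matched:
Pmp22 start 1, chr11:63128732-63128981, plus strand: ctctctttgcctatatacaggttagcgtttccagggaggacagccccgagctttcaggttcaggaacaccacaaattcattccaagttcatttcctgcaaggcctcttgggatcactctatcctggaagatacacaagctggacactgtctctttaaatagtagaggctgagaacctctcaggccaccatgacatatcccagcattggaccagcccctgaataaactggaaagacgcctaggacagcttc
Pmp22 start 3, chr11:63132319-63132568, plus strand: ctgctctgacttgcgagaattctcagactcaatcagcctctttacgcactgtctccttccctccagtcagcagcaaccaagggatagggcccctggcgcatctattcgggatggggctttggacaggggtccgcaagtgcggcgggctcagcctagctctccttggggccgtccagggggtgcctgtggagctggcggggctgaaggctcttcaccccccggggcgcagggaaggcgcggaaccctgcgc
Mag was the 1 gene with a match among the 4 measured genes searched (Pmp22, Mag, Egr2 and S100b). Of its 3 windows, 2 overlapping ones contained the same SOX core, which lies on the strand opposite to the gene and is marked by capitals in the 250 bases before the start farthest upstream:
Mag start 3, chr7:30914923-30915172, minus strand: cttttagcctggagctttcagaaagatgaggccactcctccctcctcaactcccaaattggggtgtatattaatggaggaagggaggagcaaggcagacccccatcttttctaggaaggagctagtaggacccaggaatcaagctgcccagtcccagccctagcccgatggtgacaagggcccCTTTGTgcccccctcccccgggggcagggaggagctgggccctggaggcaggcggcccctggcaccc
A match describes the letters of a window and is no evidence of binding. Mbp and Sox10 were not searched.

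Mbp, whose product holds the cytoplasmic faces of the myelin membrane together, did not differ between the groups beyond the spread of the mice. Its log2 signals were 5.38, 6.15, 5.61, 6.56, 5.31 and 5.67 in RT-1 to RT-6, against 5.13, 5.48, 6.06, 5.74, 6.09 and 5.19 in RS-1 to RS-6. RT-4 was the highest mouse for Mbp, as it was for Pmp22, and RS-1 the lowest. Mbp averaged 5.78 ± 0.48 in RT and 5.62 ± 0.42 in RS (SD, n = 6 each), a log2 difference of 0.17 (standard error 0.21, adjusted p = 0.614 from limma, exact permutation p = 0.543). The 95% interval of the difference ran from −0.28 to 0.61.

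Within each group Pmp22 and Mbp went up and down together from mouse to mouse. With the group means removed, their Pearson correlation over the 12 mice was 0.95 (Spearman's rho 0.92), and 0.89 without the 2 mice farthest from the median of Mbp. This is a description, since the mice share cages and the genes share arrays. Of 19937 other genes, the 3 most like Mbp were Cdh19 (r = 0.97), Drp2 (r = 0.97) and Gpm6b (r = 0.95), and the 3 most like Pmp22 were Gpm6b (r = 0.95), Drp2 (r = 0.95) and Mbp (r = 0.95). Cdh19 is a cadherin of Schwann cells and their precursors, Drp2 encodes the dystrophin-related protein that periaxin binds in the Schwann cell membrane, and Gpm6b encodes a membrane glycoprotein of neurons and glia. An r of at least 0.8 was reached with Mbp by 24 genes (0.12% of all), among them Mal, Pllp, Drp2 and Cadm4 of 26 other myelin structural genes, Ugt8a and Fa2h of 12 myelin lipid enzymes, and Cdh19. With Pmp22 it was reached by 25 genes (0.125%), among them Cnp, Mal, Pllp, Drp2, Cd9, Ugt8a and Cdh19. In the fibroblast, endothelial, macrophage and adipocyte lists, 0 genes reached it with either. With so small a share over all genes, 0 in such short lists sets no contrast. The mean of the macrophage list had a correlation of 0.53 with Pmp22 (0.205 without the 2 mice farthest from its median). That of the adipocyte list was −0.36. These lists and the limit of 0.8 were chosen with the values known.

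Drp2 shows the shared pattern. Its log2 signals were 4.56, 5.57, 4.88, 6.44, 4.65 and 4.91 in RT-1 to RT-6, against 4.28, 4.67, 5.56, 4.9, 5.34 and 4.6 in RS-1 to RS-6. RT-4 and RT-2 were the highest RT mice, and RS-3 and RS-5 the highest RS mice, in Drp2, Mbp, Pmp22 and Cdh19 alike. Cdh19 had a log2 difference of 0.28 (adjusted p = 0.357 from limma) and Drp2 of 0.28 (adjusted p = 0.514). Gpm6b was called higher, at 5.48 ± 0.41 in RT and 4.84 ± 0.46 in RS (SD, n = 6 each), a rise of 0.64 (standard error 0.20, adjusted p = 0.0442).

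Set against Mbp in the same mouse, Pmp22 was higher in all RT mice than in any RS mouse. The difference Pmp22 minus Mbp, a log2 ratio of 2 signals of 1 array, was 3.26, 3.16, 3.16, 3.84, 3.04 and 3.11 in RT-1 to RT-6, against 2.21, 2.27, 2.81, 1.86, 2.54 and 1.95 in RS-1 to RS-6. It averaged 3.26 ± 0.29 in RT and 2.27 ± 0.36 in RS (SD, n = 6 each), a shift of 0.99 (exact permutation p = 0.00216, two-sided, the smallest that 924 splits can give). Without RS-4 and RS-6 the shift was 0.80, still without overlap (exact permutation p = 0.00476 over 210 splits). This ratio was chosen after the values were seen, as 1 of 5 such differences to Mbp. The other 4, for Mag, Sox10, Egr2 and S100b, were shifts of −0.27, −0.55, −0.27 and −0.32 with overlapping groups (exact permutation p = 0.320, 0.0887, 0.320 and 0.182). Signals of dim transcript clusters are compressed on the log2 scale, so that equal changes in RNA can give unequal shifts, and the part of this in the ratio was not tested. Within the groups Pmp22 moved by 1.51 per unit of Mbp, and on that slope the change of Mbp corresponds to 0.25 of the rise of Pmp22, which leaves 0.90. The ratio shows unequal change of the 2 transcript clusters, not which cells changed.

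**Figure D2:**
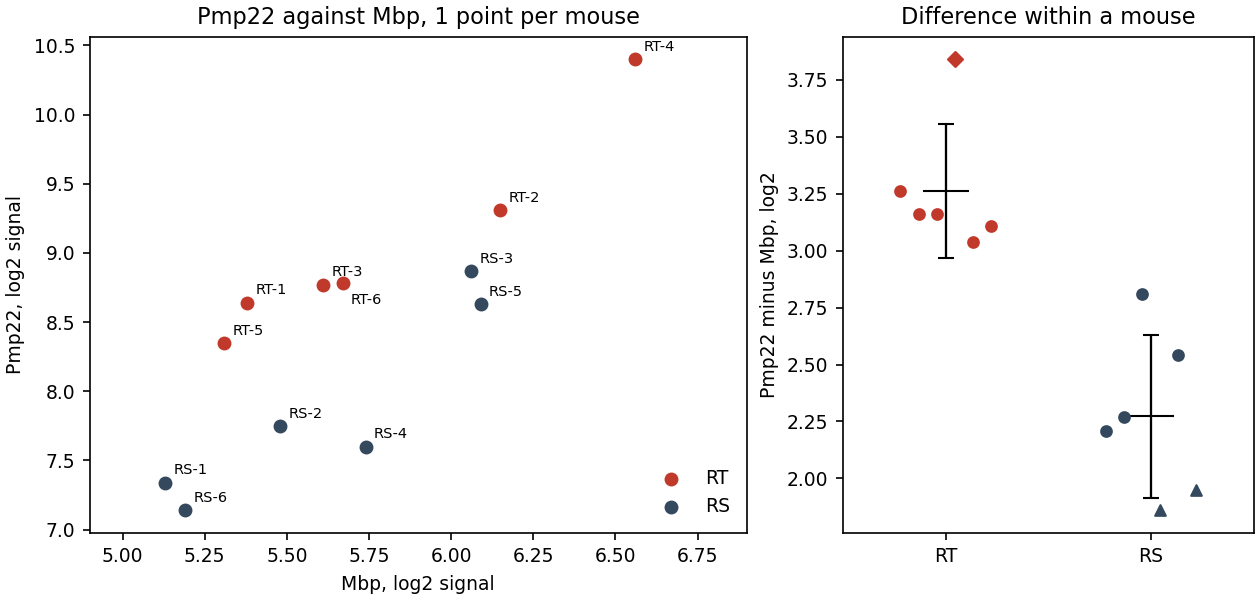
Left, log2 signal of Pmp22 (vertical) against Mbp (horizontal), 1 labelled point per mouse, RT in red and RS in dark blue; right, Pmp22 minus Mbp on the log2 scale within each mouse, with mean and SD (n = 6 each; triangles are RS-4 and RS-6, the diamond is RT-4). The pair rose together within each group, and the differences of 3.04 to 3.84 in RT lay above the 1.86 to 2.81 of RS.

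Pmp22 is also transcribed outside Schwann cells and was first cloned as a growth arrest gene of fibroblasts. Fibroblast markers moved in the same direction, led by Fn1, Lum, Dpt and Pdgfra, with 8 of 9 called higher, a median log2 change of 0.80, and a summed linear signal of 3922 to 5310 in RT and 1808 to 4001 in RS. Of the endothelial markers, led by Vwf, Emcn, Cdh5 and Kdr, 7 of 10 were called higher, with a median log2 change of 0.51 and a summed signal of 1140 to 1453 in RT and 845 to 1132 in RS. Both lists lost calls with RS-4 and RS-6 left out, to 6 fibroblast markers (median 0.48) and 4 endothelial markers (median 0.35), and with array SD as a covariate, to 1 fibroblast marker (median 0.49) and 2 endothelial markers (median 0.23). All markers measured in these 2 lists were brighter than the array's median, where 20.6% of transcript clusters were called higher and 10.7% lower. With group means removed, Pmp22 had a Pearson correlation of 0.54 (Spearman's rho 0.45) with the mean of the fibroblast list over the 12 mice, which was 0.24 without the 2 mice farthest from its median, and of 0.18 (rho 0.24) with the endothelial list. The part of these cells in the rise of Pmp22 was not tested.

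Sox10, the transcription factor that neural crest cells and Schwann cells need at every stage, fell in RT without overlap between the groups. Its log2 signals were 4.43, 4.72, 4.71, 4.58, 4.63 and 4.29 in RT-1 to RT-6, against 4.77, 4.78, 4.9, 5.22, 4.76 and 5.22 in RS-1 to RS-6. RS-4 and RS-6 were the highest of all mice, and 0.04 separated the highest RT mouse from the lowest RS mouse. Over the array, 3.1% of transcript clusters had all RT mice below all RS mice. Sox10 averaged 4.56 ± 0.17 in RT and 4.94 ± 0.22 in RS (SD, n = 6 each), a change of −0.38 (standard error 0.11, adjusted p = 0.0283 from limma, exact permutation p = 0.00216). The call ended without RS-4 and RS-6, where the change was −0.24 (adjusted p = 0.134), and with array SD as a covariate, where it was −0.18 (adjusted p = 0.332). Over all 23 alternatives the adjusted p of Sox10 lay between 0.0184 and 0.332.

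From mouse to mouse Sox10 went with Mag more than with Mbp or Pmp22. With group means removed its correlation over the 12 mice was 0.66 with Mag (rho 0.65), 0.02 with Mbp (rho −0.07) and −0.17 with Pmp22 (rho −0.28), and it was −0.80 (rho −0.79) with array SD. The correlation with array SD was −0.75 without the 2 mice whose SD, with group means removed, lay farthest from the median. These 2 mice are not the pair RS-4 and RS-6, and the correlation without that pair was not computed. Sox10 had a correlation of −0.74 (rho −0.77) with the mean of the fibroblast list, whose markers rose in RT as given above. It was −0.80 without the 2 mice farthest from the median of that mean. RS-4 and RS-6, the arrays with the smallest SD, also had the lowest means of the fibroblast list. The part of array SD in this correlation was not tested. Mag had a correlation of −0.80 (rho −0.78) with array SD, and Egr2 of −0.67 (rho −0.73), which was −0.33 without the 2 mice left out for Sox10 with array SD. For Mbp, Pmp22 and S100b the values were 0.05, 0.24 and −0.26. The 3 genes most like Sox10 were Adam30 (r = 0.97), Paqr8 and Ccdc51 (r = 0.93 each), none of them called. The part of fibroblasts in the fall of Sox10 was not tested. Array SD differed between the groups, so the covariate above cannot tell its part from a difference between RT and RS.

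Egr2, the zinc finger factor that drives myelination together with Sox10, did not differ beyond the spread of the mice. Its log2 signals were 4.51, 4.44, 4.29, 4.71, 4.39 and 4.24 in RT-1 to RT-6, against 4.34, 4.41, 4.36, 5.16, 4.46 and 4.46 in RS-1 to RS-6. RS-4 alone lay far above the rest. Egr2 averaged 4.43 ± 0.17 in RT and 4.53 ± 0.31 in RS (SD, n = 6 each), a log2 difference of −0.10 (standard error 0.13, adjusted p = 0.609 from limma) that turned to 0.02 without RS-4. Egr2 is also an immediate early gene of activated cells. Of 10 other immediate early genes, 3 were lower in RT (Atf3 at −0.77, Fos at −0.52 and Fosb at −0.40), and Egr1 and Egr3 did not pass. All 10 were brighter than the array's median, where 10.7% of transcript clusters were called lower. The call of Atf3 ended without any 1 of RS-3 to RS-6, RT-1, RT-2, RT-4 and RT-6, that of Fos without any 1 of RS-5, RS-6, RT-1 and RT-6, and with RS-4 and RS-6 left out together 0 of the 10 were called. The 3 genes most like Egr2 over the mice were 1700030C12Rik (r = 0.96), the agouti gene a (r = 0.95) and Ugt2b35 (r = 0.94).

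Mag, which faces the axon from the innermost wrap, had log2 signals of 4.03, 3.97, 3.84, 4.50, 4.16 and 3.63 in RT-1 to RT-6, against 3.76, 3.97, 4.08, 4.46, 4.07 and 4.44 in RS-1 to RS-6. The groups overlapped over nearly their whole range. Mag averaged 4.02 ± 0.30 in RT and 4.13 ± 0.27 in RS (SD, n = 6 each), a log2 difference of −0.11 (standard error 0.14, adjusted p = 0.623 from limma) whose sign turned after cyclic loess, with array SD as a covariate, and without RS-4 and RS-6. The genes most like Mag were Cga (r = 0.94), the odorant receptor gene Olfr237 and Pnmt (r = 0.93 each). Mag's own correlation with Mbp was 0.33 (rho 0.22), and that with Egr2 0.72 (rho 0.82). Mag and Egr2 each also went with array SD (−0.80 and −0.67), and the part of this in their correlation was not tested. S100b had log2 signals of 4.39, 4.71, 4.35, 4.58, 4.26 and 4.55 in RT-1 to RT-6, against 4.20, 4.53, 5.02, 4.74, 4.48 and 4.78 in RS-1 to RS-6. All RT mice lay within the range of RS. S100b averaged 4.47 ± 0.17 in RT and 4.63 ± 0.28 in RS (SD, n = 6 each), a log2 difference of −0.15 (standard error 0.12, adjusted p = 0.404 from limma), negative under all 23 alternatives. Of 9 adipocyte markers 5 were called higher, led by Adipoq, Cidec, Retn and Lep, and 4 did not pass, among them Car3 (−0.29) and Pparg (−0.07). Of these markers, 7 were brighter than the array's median and 2 dimmer, where 20.6% and 3.21% of transcript clusters were called higher. The summed linear signal of the list, Car3 included, was 2367 to 4220 in RT and 2123 to 4549 in RS. With RS-4 and RS-6 left out 4 of the 9 were called, and with array SD as a covariate 1 was. The correlation of S100b with the mean of the list was 0.01 (rho 0.20). The genes most like S100b were Jade3 (r = 0.91), Cacna1a and Nt5c2 (r = 0.87 each).

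**Figure D3:**
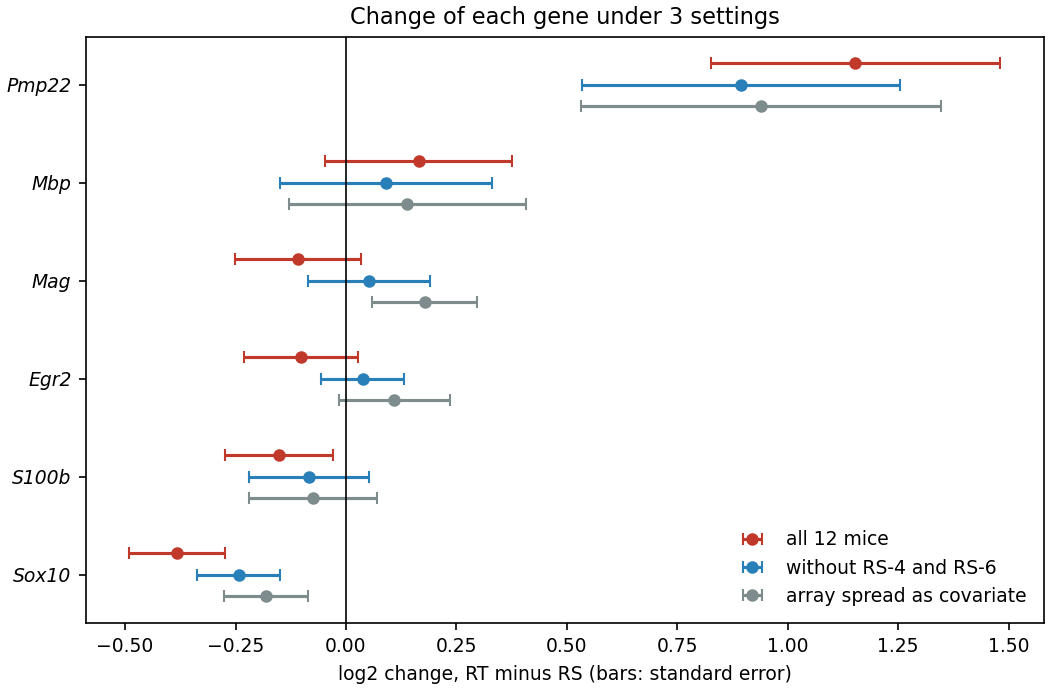
Horizontal axis, log2 difference between RT and RS; points are the 6 genes and bars the standard error of limma's fit, for all 12 mice (red), without RS-4 and RS-6 (blue), and with array SD as a covariate (gray). Pmp22 stayed between 0.89 and 1.15, Sox10 lay at −0.38, −0.24 and −0.18, and Mag and Egr2 crossed 0.

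Of 26 other myelin structural and junction genes, 4 were called higher, 1 was called lower and 21 did not pass, with a median log2 change of 0.11. The 4 were the tetraspanin genes Cd9, at 7.01 ± 0.21 in RT and 6.31 ± 0.37 in RS, and Cd81, at 9.64 ± 0.10 in RT and 8.97 ± 0.39 in RS (SD, n = 6 each), the laminin chain gene Lama2 (0.59) and the dystroglycan gene Dag1 (0.32). All 4 are also active outside Schwann cells, Lama2 and Dag1 in muscle itself. Nfasc, which encodes neurofascin of the node of Ranvier, was the gene called lower (−0.29). Of the 26 genes, 18 were brighter than the array's median, where 20.6% of transcript clusters were called higher and 10.7% lower. The other 8 were dimmer, where the shares were 3.21% and 15.3%. A count of 4 higher in 26 lies near this background, and the counts of the lists below are to be read against these shares too. Cnp and Gjb1, which encode an enzyme of the myelin cytoplasm and the connexin of Schwann cells, had log2 differences of 0.14 (adjusted p = 0.439 from limma) and 0.05 (adjusted p = 0.828). The genes that followed Mbp over the mice, Mal (0.19), Pllp (0.16) and Cadm4 (0.05), did not pass either. When RS-4 and RS-6 were left out, 3 of the 26 were called higher and 0 lower, and with each array centred on its median 7 and 0. Cd81 and Lama2 kept their calls both there and with array SD as a covariate, and Cd9 lost its call with the covariate alone. Dag1 lost it also without any 1 of RS-5, RS-6, RT-1 and RT-6, and Nfasc without any 1 of RS-4, RS-6, RT-1 and RT-2.

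Enzymes that make the lipids of myelin, which are also used by other cells, were called higher in 6 of 12, with 0 lower and a median log2 change of 0.37. Elovl6, a fatty acid elongase, rose by 0.57, Sptlc2, a subunit of the enzyme that starts sphingolipid synthesis, by 0.52, the elongase Elovl1 by 0.47 and the ceramide desaturase Degs1 by 0.38. The 3 enzymes of the list that make or modify galactolipids of myelin did not pass. Ugt8a, which makes galactosylceramide, had a log2 difference of 0.49 (standard error 0.32, adjusted p = 0.294 from limma), Fa2h of −0.19 and Gal3st1 of −0.09. With RS-4 and RS-6 left out 4 of the 12 were called higher, and Elovl6 and Sptlc2 kept their calls with array SD as a covariate as well.

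Among 25 regulators of Schwann cells, 5 were called higher, 6 lower and 14 did not pass, with a median log2 change of −0.01. This split depended on the scaling: with each array centred on its median 9 were higher and 1 lower, and with array SD as a covariate 2 were higher and 0 lower. Zeb2, a repressor needed for myelination and also expressed in macrophages, rose by 0.59, the HLH factor gene Id2 by 0.49, and the YAP partner Wwtr1 (TAZ) by 0.44. Sox2, a factor of immature Schwann cells that was dimmer than the array's median, fell by 0.40. Erbb3, the neuregulin receptor subunit of Schwann cells, averaged 4.75 ± 0.23 in RT and 4.89 ± 0.27 in RS (SD, n = 6 each, adjusted p = 0.474 from limma), and its partner gene Erbb2 was called lower (−0.33). The corepressors of Egr2 were called in opposite directions, Nab1 higher (0.30) and Nab2 lower (−0.25). Leaving out RS-4 and RS-6 gave 4 regulators higher and 1 lower, without Nab1, Nab2 and Erbb2, and among the genes named here Zeb2 alone was also called with array SD as a covariate. The call of Erbb2 ended without RS-6 or RT-1 alone, and that of Nab2 without any 1 of RS-5, RS-6, RT-1, RT-2, RT-4 and RT-5.

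Of 16 markers of non-myelinating, precursor and repair Schwann cells, 2 were called higher, 4 lower and 10 did not pass. Gap43, a growth cone protein also made by Schwann cells after nerve injury, had log2 signals of 5.06, 4.71, 4.76, 4.83, 4.71 and 4.57 in RT-1 to RT-6, against 5.23, 5.27, 5.17, 5.58, 5.37 and 5.67 in RS-1 to RS-6. Every RT mouse lay below every RS mouse, as in 3.1% of transcript clusters over the array. Gap43 fell by 0.61 (standard error 0.10, adjusted p = 0.00228 from limma). Shh and Igfbp2 fell by 0.45 and 0.40, at mean log2 signals of 4.67 and 4.83, close to the medians of the arrays. All 3 kept their calls with RS-4 and RS-6 left out and with array SD as a covariate. Scn7a, a sodium channel of non-myelinating Schwann cells, rose by 0.68 (adjusted p = 0.0123), and Ncam1, which is also found on muscle fibers and satellite cells, by 0.32, and both lost their calls with the covariate. Ngfr, Gfap and Cdh19 had log2 differences of −0.08, −0.26 and 0.28 and did not pass.

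Lists for the rest of the nerve, for oligodendrocytes, which muscle lacks, and for immune cells complete the comparison. Of 14 axonal and motor neuron genes, whose cell bodies lie outside the muscle, 2 were called higher and 4 lower (median −0.21). Map1b, a microtubule protein, rose by 0.63, and Mnx1, Isl1 and Tubb3, all dimmer than the array's median, fell by 0.43, 0.43 and 0.40. Of 8 perineurial and endoneurial genes, 4 were called higher and 0 lower (median 0.28), namely Tjp1 (0.56), Etv1 (0.54), Cldn1 (0.51) and Slc2a1 (0.38). Tjp1, Cldn1 and Slc2a1 encode junction proteins and the glucose transporter of the nerve's barrier layer and serve other barriers too. Of 11 oligodendrocyte genes, 1 was called higher and 3 lower (median −0.21). Olig2, Myrf and Mobp, all dimmer than the array's median, fell by 0.43, 0.30 and 0.29. The 3 genes of this list brighter than the median were Aspa, Sox17 and Cspg4. Sox17 and Cspg4, which cells of blood vessels also express, did not pass. Aspa rose by 0.40, and the cells behind its signal were not tested. The call of Mobp ended without any 1 of RS-2, RS-4, RS-5, RT-1, RT-2 and RT-6, that of Aspa without any 1 of RS-2, RS-4, RS-6, RT-1, RT-2 and RT-5, and that of Cldn1 without RT-1 or RT-2. With RS-4 and RS-6 left out, 1 axonal gene (Map1b) and 2 perineurial and endoneurial genes (Etv1 and Slc2a1) were higher, and 0 oligodendrocyte genes were called. With each array centred on its median 2 oligodendrocyte genes were higher and 2 lower. Macrophage markers, led by Lyz2, Mrc1, Cd163 and Cd68, were higher in 8 of 10, with a summed signal of 539 to 781 in RT and 283 to 496 in RS. With RS-4 and RS-6 left out 7 of them were called, and with array SD as a covariate 5 were. Of 8 genes listed as lymphocyte markers, 1 was higher (Ptprc) and 2 were lower (Cd3e and Cd3g), and 0 were lower under either setting. Their summed signal was 88.6 to 102 in RT and 90.8 to 107 in RS. Ptprc is carried by white blood cells in general, macrophages included.

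**Figure D4:**
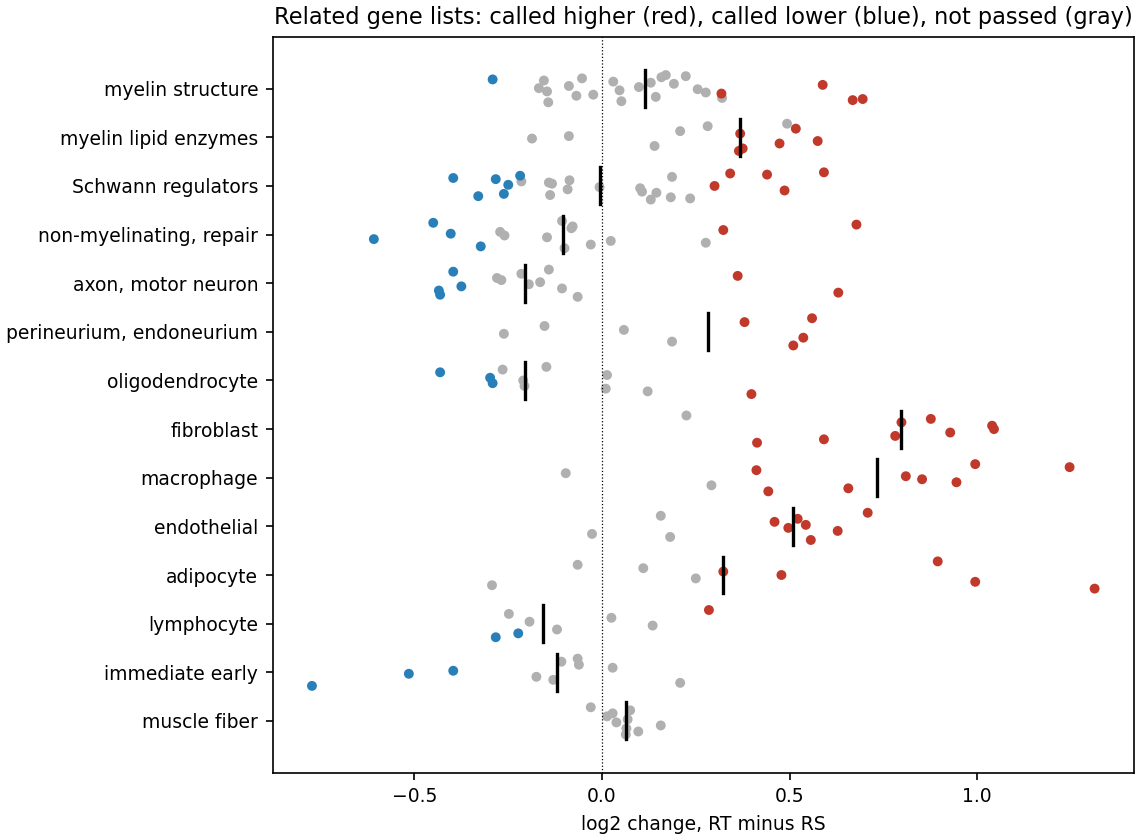
Horizontal axis, log2 difference between RT and RS, with 1 point per gene in 14 related lists; red points were called higher, blue ones lower and gray ones not, and black ticks give list medians. The median was 0.11 for myelin structure and 0.37 for myelin lipid enzymes, against 0.80 for fibroblast markers and 0.06 for muscle fiber genes.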

How the data were processed

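Gastrocnemius RNA of 12 mice was hybridized to Affymetrix Mouse Gene 1.0 ST arrays, 1 per mouse, from 250 ng of total RNA each. The deposited values are log2 signals of 28944 transcript clusters that the authors obtained with RMA (robust multi-array averaging). Different programs are given for this in the methods, Expression Console and, with the SST-RMA variant, Transcriptome Analysis Console. No genome build is named for the values. Values lay between 0.53 and 13.67, and 0 columns belonged to other samples. Precision is limited by 6 arrays per group.

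Transcript clusters were named through the platform annotation: 21789 carried 1 symbol, 1621 several and 5534 none, and 21698 matched a RefSeq gene by identifier. The brightest transcript cluster stood for a gene that had several. All transcript clusters were fitted with limma 3.58.1 (lmFit, eBayes; R 4.3.3), RT against RS, two-sided and without covariates. Every adjusted p is from limma, with Benjamini-Hochberg adjustment. An exact permutation test over all 924 splits was run for single genes. The fit was tested on simulated data. The members, the 14 related lists (187 genes, of which 178 were measured) and the tests were chosen with earlier results of these data known. Named genes are the 7 listed ones, up to 4 called genes with the largest change from each related list, the preset genes Cnp, Gjb1, Erbb3, Ngfr, Gfap, Ncam1 and Cdh19, and the 3 genes most like each member by Pearson correlation over the mice after removal of group means; other names were chosen after their values were seen. Some items are not reported here. Alternatives were other normalizations, filters, variance models, weights, array SD as a covariate, a replicate block, and mice left out. The p-values measure only the spread between these mice.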

Additional observations from a re-analysis of the deposited data

Results flagged for a closer look

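Egr2 had a log2 signal of 5.16 in RS-4, far above the 4.34 to 4.46 of the other RS mice. Its gap to the nearest of them was 0.854 of the range of the group, above Dixon's 95% critical value. Chance flags about 1 in 20 groups, and 12 groups were looked at. RS-4 is also 1 of the 2 arrays with the smallest SD, and the part of that in the value was not tested.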

How the results depend on the processing

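Of the 6 genes, the same 2 were called in the same directions under each alternative but 2: 0 were called with array SD as a covariate and 0 without RS-4 and RS-6. Leaving out 1 mouse at a time left 2 called each time. Over the array the 7209 calls became 1620 with the SD covariate, 3440 without RS-4 and RS-6, 4399 at an adjusted p under 0.05, and 4924 to 9379 without 1 mouse. Centering each array on its median changed the split of 3445 higher and 3764 lower to 5883 and 2414. In the related lists, 76 genes were called (53 higher and 23 lower), 22 with the SD covariate (19 and 3), 42 without RS-4 and RS-6 (38 and 4), 83 after centering (69 and 14) and 57 to 86 without 1 mouse. With the replicate block, 6047 transcript clusters, the same 2 of the 6 genes and 76 related genes were called; the mice share only a number, since same-numbered RT and RS mice correlated at −0.24 to 0.11 after removal of group means and 1 of 12 correlated best with its own number. Changes that turned sign were those of Mag, at 0.0060 after cyclic loess, 0.18 with the SD covariate and 0.052 without RS-4 and RS-6, and of Egr2, at 0.11 with the SD covariate, 0.038 without RS-4 and RS-6 and 0.024 without RS-4 alone (−0.16 to 0.024 without 1 mouse), none of them called. The shift of Pmp22 minus Mbp lay between 0.80 and 1.1 over its alternatives, all added after seeing the data, and between 0.87 and 1.1 without 1 mouse. The cause of the dependence on RS-4 and RS-6 was not tested.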
